A study of Mus musculus with 2 samples.

Results

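The distal-less (*Dlx*) and msh (*Msx*) genes encode homeodomain transcription factors, and their reads were compared between primary chondrocytes and primary dermal fibroblasts. The members were the rows of the count table named *Dlx1* to *Dlx6*, *Msx1* and *Msx2*, which are 8 of its 24421 rows. The chondrocytes came from rib cartilage of newborn mice, were released by collagenase and were used at an early passage, and the dermal fibroblasts came from the dorsal skin of newborn mice. No genotype, strain or treatment is named for either preparation in the sources used here, nor is the number of animals in each. RNA-Seq of polyadenylated RNA gave 1 library per cell type, with 18788599 counted reads in chondrocytes and 17563724 in dermal fibroblasts, so no difference below has a replicate check and no test was run. The study used this comparison to find transcription factors with higher expression in chondrocytes whose motifs lie in enhancers of *Sox9*, the master regulator of cartilage formation.

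DLX and MSX proteins bind short AT-rich DNA sites through a homeodomain, a domain of helices encoded by the homeobox. They are induced by bone morphogenetic protein (BMP) signals in limb, craniofacial and skin mesenchyme, and by endothelin signals in the pharyngeal arches. DLX proteins mostly activate transcription and MSX proteins mostly repress it, and members of the groups can bind the same sites and each other. *Dlx5* and *Dlx6* promote chondrocyte hypertrophy and osteoblast differentiation, *Dlx1* and *Dlx2* direct forebrain interneurons and the upper jaw, *Dlx3* acts in epidermis, hair, teeth and bone, and *Msx1* and *Msx2* act in teeth, skull and limb.

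The 6 *Dlx* genes lie in 3 pairs whose genes face each other on opposite strands. In GRCm38, *Dlx1* (71528113 to 71533981, plus strand) and *Dlx2* (71543408 to 71546754, minus strand) lie on chromosome 2, 9426 bp apart. *Dlx3* (95120117 to 95125296, plus strand) and *Dlx4* (95140447 to 95146294, minus strand) lie on chromosome 11, 15150 bp apart. *Dlx6* (6863334 to 6867970, plus strand) and *Dlx5* (6877801 to 6882068, minus strand) lie on chromosome 6, 9830 bp apart. *Msx1* is on chromosome 5 (37820491 to 37824585) and *Msx2* on chromosome 13 (53466881 to 53472780), both on the minus strand.

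The homeobox is the part that the members share most, so it is shown for the *Dlx* genes with the most reads. It was read from GENCODE vM1 transcripts (build NCBIM37), 180 bases per gene. Capitals mark bases that differ from *Dlx5* at the same place of the homeobox.

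Dlx5: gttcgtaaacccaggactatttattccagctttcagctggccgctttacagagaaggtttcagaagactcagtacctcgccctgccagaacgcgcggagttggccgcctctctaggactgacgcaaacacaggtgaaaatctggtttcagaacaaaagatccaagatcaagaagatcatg
Dlx2: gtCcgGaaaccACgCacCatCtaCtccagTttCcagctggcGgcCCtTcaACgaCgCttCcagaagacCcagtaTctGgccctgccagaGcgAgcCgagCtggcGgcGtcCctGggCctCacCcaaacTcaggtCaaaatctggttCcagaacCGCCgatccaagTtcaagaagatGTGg
Dlx3: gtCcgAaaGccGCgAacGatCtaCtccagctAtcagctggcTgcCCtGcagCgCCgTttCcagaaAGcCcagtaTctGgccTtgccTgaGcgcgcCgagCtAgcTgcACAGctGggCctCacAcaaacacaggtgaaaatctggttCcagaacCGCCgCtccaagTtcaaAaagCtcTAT
Dlx1: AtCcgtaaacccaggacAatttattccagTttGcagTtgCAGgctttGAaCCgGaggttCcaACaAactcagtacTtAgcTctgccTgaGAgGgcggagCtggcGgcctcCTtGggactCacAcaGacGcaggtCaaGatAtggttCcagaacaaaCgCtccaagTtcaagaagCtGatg

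The homeobox of *Dlx2* differed from that of *Dlx5* at 44 bases, that of *Dlx3* at 51 and that of *Dlx1* at 43. Identity ranged from 66.1% to 81.7% over the 15 *Dlx* pairs. These sequences bear on the counts because a read that fits 2 genes equally well cannot be placed. The longest stretch that any pair of *Dlx* transcripts had in common was 23 bp, that of the *Msx* pair was 22 bp, and that of any *Dlx* and *Msx* pair was 44 bp, against a read length of 75 bp. No 75-base stretch of the annotated coding transcripts of *Dlx1*, *Dlx2*, *Dlx3*, *Dlx4*, *Dlx5*, *Msx1* or *Msx2* was found in a coding transcript of another gene. A 75-base stretch of *Dlx6* was found in those of 2 other genes, *Nkx2-1* and *Klhl32*.

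Reads of this family were few in both libraries and more numerous in chondrocytes. The 8 members summed to 269 counts in chondrocytes and 76 in dermal fibroblasts. After scaling by edgeR TMM factors these were 15.0 and 4.13 CPM (counts per 1e6 of scaled library size), that is, 3.64 times as many in chondrocytes (95% counting interval 2.81 to 4.75). The 6 *Dlx* genes had 233 and 63 counts (3.80-fold, interval 2.86 to 5.10), and the 2 *Msx* genes had 36 and 13 (2.84-fold, interval 1.47 to 5.84). Without *Dlx5* the sum was 2.48-fold higher in chondrocytes, and without *Dlx2* and *Dlx5* it was 2.05-fold higher (interval 1.38 to 3.10). Each member had fewer than 100 counts in each library. Fewer cells that express a gene and less RNA of it per cell cannot be told apart in bulk RNA.

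**Figure D1:**
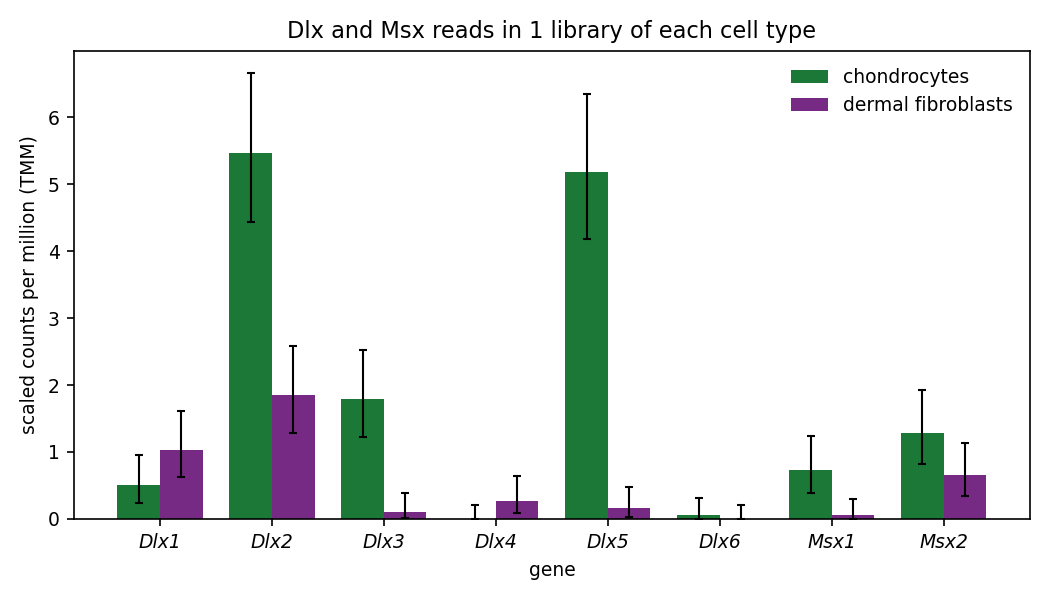
Scaled CPM (vertical axis) of each member in the chondrocyte library (green) and the dermal fibroblast library (purple), with 95% Poisson counting intervals as bars. *Dlx2* at 5.47 and *Dlx5* at 5.19 stand above the other members in chondrocytes, and *Dlx2* at 1.85 is the highest bar in dermal fibroblasts.

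Folds were taken after counts under 3 were set to 3, and a member was counted as higher where the fold was over 2. Of the 8 members, 7 had more than 3 counts in a library and so had a fold. By this rule 4 were higher in chondrocytes (*Dlx2*, *Dlx3*, *Dlx5* and *Msx1*), 1 was higher in dermal fibroblasts (*Dlx1*) and 2 were within 2-fold (*Dlx4* and *Msx2*). Among all 15616 genes with more than 3 counts in a library, 12.1% were over 2-fold higher in chondrocytes and 15.8% in dermal fibroblasts. The median log2 fold of the 7 members was 1.57, beside 0.00 for all these genes. For 3 members, *Dlx3*, *Dlx5* and *Msx1* (lower limit 2.01), all of the interval was above 2-fold, beside 6.67% of all these genes in that direction. It lay beyond 2-fold in dermal fibroblasts for 0 members, beside 9.9% of all these genes.

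**Figure D2:**
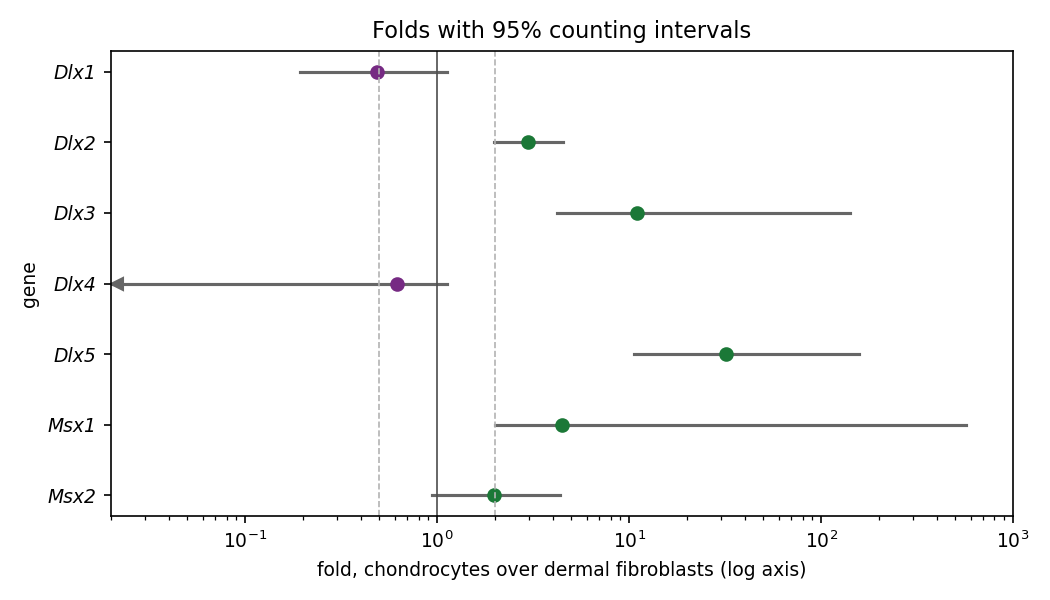
Fold of chondrocytes over dermal fibroblasts on a log axis for the 7 members that have one. Points are folds with counts under 3 set to 3, lines are 95% counting intervals of the unadjusted ratio, the arrow marks an interval that reaches 0, and dashed lines mark 2-fold in each direction. The intervals of *Dlx3*, *Dlx5* and *Msx1* lie above 2-fold, that of *Dlx2* starts at 1.99, and those of *Dlx1*, *Dlx4* and *Msx2* include equality.

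*Dlx5*, which activates genes of hypertrophic cartilage and bone, had the largest fold of the family. There were 93 counts of it in chondrocytes against 3 in dermal fibroblasts, which is 5.19 and 0.163 CPM. The ratio was 31.8, with an interval from 10.6 to 157 that overlaps the intervals of *Dlx3* and *Msx1*. The reads of *Dlx5* were thus well above the counting error in one library and at the floor in the other. Its fold was 9.55 with counts under 10 set to 10. Its neighbour *Dlx6*, which in the pharyngeal arches is expressed together with *Dlx5*, had a single read over the libraries (1 and 0 counts), and no fold was taken. Of the reads of this pair in chondrocytes, 98.9% fell on *Dlx5* (exact binomial interval from 94.2%). The 3 reads of the pair in dermal fibroblasts were too few to compare this share. In GRCm38 the opposite-strand gene *Dlx6os1* covers all 4637 bp of the span of *Dlx6*. Whether strand was used in the counting is not stated, so reads of *Dlx6* may have been lost. The low count of *Dlx6* and the share of *Dlx5* in the pair carry this limit.

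*Dlx2* was the member with the most reads in both libraries. Its 98 counts in chondrocytes and 34 in dermal fibroblasts were 5.47 and 1.85 CPM, and it was 2.96-fold higher in chondrocytes (interval 1.99 to 4.51). *Dlx1*, the other gene of its pair, lay in the opposite direction with 9 and 19 counts. It was 2.06-fold higher in dermal fibroblasts, with an interval from 0.886 to 5.16 that includes equality, and it fell to 1.89-fold with *Actb* scaling. The pair could also be compared without any scaling between the libraries. *Dlx1* took 8.41% of the reads of the pair in chondrocytes (9 of 107, exact interval 3.92% to 15.4%) and 35.8% in dermal fibroblasts (19 of 53, interval 23.1% to 50.2%). These intervals do not overlap, so the balance within the pair differed between the libraries by more than counting error. In GRCm38 the antisense gene *Dlx1as* shares 3344 bp with the span of *Dlx1*, and it had 2 counts in each library. The sources used here do not say whether strand was used in the counting, so reads of *Dlx1* and *Dlx1as* over these bases may not have been told apart.

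*Dlx3*, a regulator of epidermal and bone differentiation, had 32 counts against 2 in dermal fibroblasts. The ratio was 16.4 (interval 4.19 to 142), and it was 11.0 with the lower count set to 3 and 3.29 with it set to 10. *Dlx4*, whose role is known best from placenta and blood cells, was not detected in chondrocytes (0 counts) and had 5 counts in dermal fibroblasts. Its level in chondrocytes was 1.62-fold lower when the 0 is set to 3 counts, and the interval of the ratio includes equality. With the 0 set to 1 count it was 4.87-fold lower. In chondrocytes the Poisson interval of the 0 counts reaches 0.206 CPM, and the floor of 3 counts is 0.167 CPM. Of the reads of this pair, *Dlx4* took 0 of 32 in chondrocytes (exact interval up to 10.9%) and 5 of 7 in dermal fibroblasts (71.4%, interval 29.0% to 96.3%). The intervals do not overlap, although the share in dermal fibroblasts rests on 7 reads. The opposite-strand gene *Dlx4os* shares 1242 bp with *Dlx4* in GRCm38, and it is named here without counts.

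*Msx1* and *Msx2*, which in many tissues keep cells from differentiating, had low counts. *Msx1* had 13 counts and 1 count, a ratio of 13.4 (interval 2.01 to 567), and 4.45 with the lower count set to 3. *Msx2* had 23 and 12 counts and was 1.97-fold higher in chondrocytes (interval 0.940 to 4.34), and 2.14-fold with *Actb* scaling. With counts under 10 set to 10, *Msx1* was at 1.34-fold, within 2-fold. *Msx2* took 63.9% of the *Msx* reads in chondrocytes (interval 46.2% to 79.2%) and 92.3% in dermal fibroblasts (12 of 13, interval 64.0% to 99.8%), and these intervals overlap. The *Msx1* antisense gene *Msx1os* lies within the span of *Msx1* over 2188 bp with 3 and 0 counts. *Dlx6os1* (2 and 0 counts) and *Dlx6os2* (1 and 0 counts) overlap *Dlx6*. The 4 antisense and opposite-strand transcripts of these loci in the table therefore had at most 3 counts in a library, and none has a fold. The third *Msx* gene, *Msx3*, a dorsal neural tube gene that is no member here, had 1 and 0 counts.

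The make-up of the family reads, which are not corrected for transcript length, differed between the libraries. In chondrocytes *Dlx2* took 36.4% of the 269 reads (interval 30.7% to 42.5%) and *Dlx5* took 34.6% (28.9% to 40.6%). In dermal fibroblasts *Dlx2* took 44.7% of the 76 reads (33.3% to 56.6%) and *Dlx5* took 3.95% (0.822% to 11.1%). The share of *Dlx2* had overlapping intervals and that of *Dlx5* did not. *Dlx1* moved the other way, from 3.35% in chondrocytes (1.54% to 6.26%) to 25% in dermal fibroblasts (15.8% to 36.3%). *Dlx4* took 0% in chondrocytes (up to 1.36%) and 6.58% in dermal fibroblasts (2.17% to 14.7%). Its intervals do not overlap either, although its share in dermal fibroblasts rests on 5 reads. *Dlx3* took 11.9% and 2.63% and *Msx2* took 8.55% and 15.8%, with overlapping intervals for both.

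**Figure D3:**
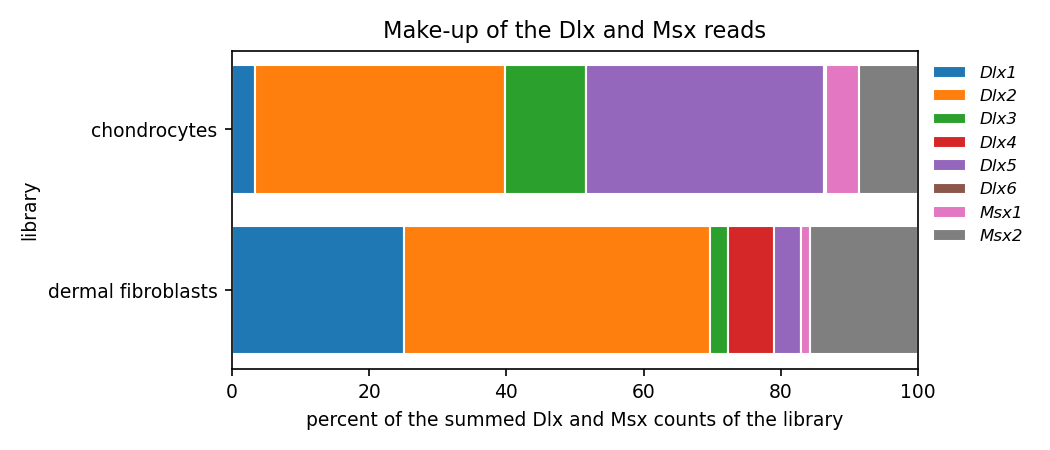
Percent of the summed *Dlx* and *Msx* counts of each library (horizontal axis) taken by each member, from 269 counts in chondrocytes and 76 in dermal fibroblasts. The *Dlx5* segment covers 34.6% in chondrocytes and 3.95% in dermal fibroblasts, and the *Dlx1* segment covers 3.35% and 25%.

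Levels of different genes were compared per length, as CPM per kilobase of annotated exon (RPKM, exon lengths from GENCODE vM1). In chondrocytes *Dlx5* was highest at 3.65 RPKM (Poisson interval 2.94 to 4.47), followed by *Dlx2* at 1.92 (1.56 to 2.33), and these intervals do not overlap. *Dlx3* (0.677 RPKM), *Msx2* (0.522) and *Msx1* (0.375) followed, and their intervals overlap. *Dlx1* (0.0931 RPKM, 0.0425 to 0.177), *Dlx6* (0.0235) and *Dlx4* (0) were lowest, and the interval of *Dlx1* lay below that of *Msx1* (0.200 to 0.641). The order in dermal fibroblasts began with *Dlx2* at 0.647 RPKM (0.448 to 0.904) and *Msx2* at 0.265 (0.137 to 0.464), whose intervals overlap slightly. It went on with *Dlx1* (0.191 RPKM), *Dlx5* (0.115), *Dlx4* (0.0833), *Dlx3* (0.0412), *Msx1* (0.0281) and *Dlx6* (0), with overlapping intervals between neighbours. The annotated exons of *Dlx1* cover 5396 bp over several alternative transcripts and those of *Dlx2* 2854 bp, against 1423 bp for *Dlx5*. The place of *Dlx1* in these orders thus depends on the annotation. So does that of *Dlx5* above *Dlx2* in chondrocytes, where they had 93 and 98 counts. The intervals take the exon lengths as exact.

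**Figure D4:**
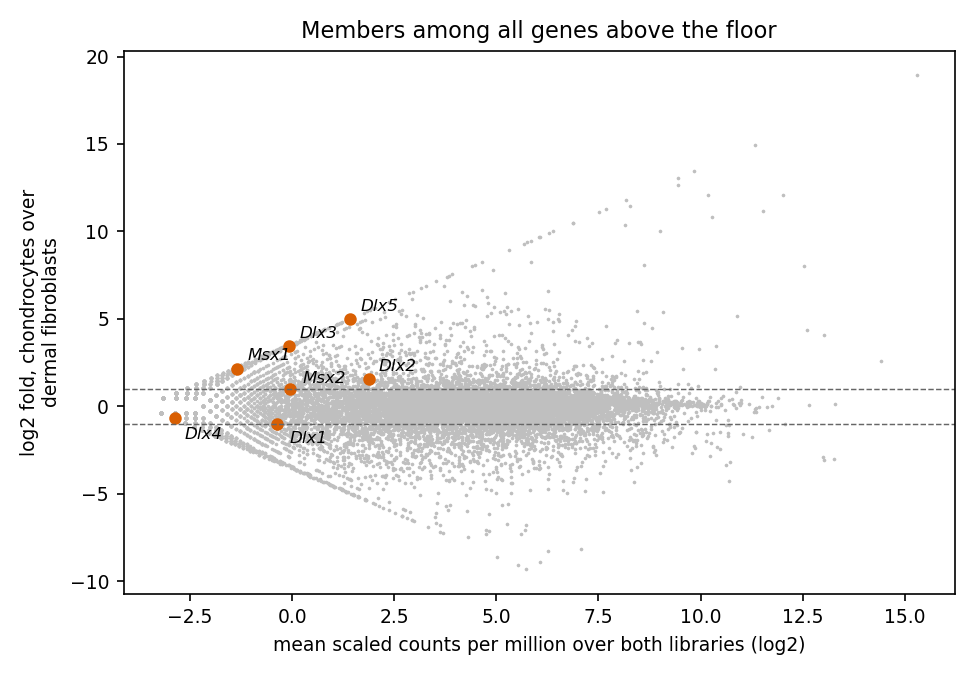
Log2 fold of chondrocytes over dermal fibroblasts (vertical axis) against the mean scaled CPM of both libraries on a log2 scale (horizontal axis), for 15616 genes (grey) and the 7 members with a fold (orange). Dashed lines mark 2-fold. The members lie at the low end of the axis, and *Dlx3*, *Dlx5* and *Msx1* lie on the edge formed by genes at 3 or fewer counts in dermal fibroblasts.

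Promoters are shown for *Dlx2*, *Msx1* and *Msx2*, 3 of the members with more reads in chondrocytes, from 250 bases before to 50 bases after the annotated start (RefSeq, GRCm38.p6, minus strand). The windows are chr2:71546705-71547004, chr5:37824536-37824835 and chr13:53472731-53473030. Promoter sequence was found for 4 of the 8 members, and *Dlx3*, *Dlx4*, *Dlx5* and *Dlx6* are named only. Capitals mark matches on either strand to the core TAATT read by DLX and MSX homeodomains, to the CCAAT box and to the E-box CACGTG.

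Dlx2: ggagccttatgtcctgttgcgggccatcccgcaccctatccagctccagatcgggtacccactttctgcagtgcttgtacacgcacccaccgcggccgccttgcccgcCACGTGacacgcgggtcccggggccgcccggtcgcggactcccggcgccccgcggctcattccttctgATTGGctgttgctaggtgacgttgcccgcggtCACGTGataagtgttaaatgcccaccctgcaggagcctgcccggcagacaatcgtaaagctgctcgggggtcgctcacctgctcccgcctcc
Msx1: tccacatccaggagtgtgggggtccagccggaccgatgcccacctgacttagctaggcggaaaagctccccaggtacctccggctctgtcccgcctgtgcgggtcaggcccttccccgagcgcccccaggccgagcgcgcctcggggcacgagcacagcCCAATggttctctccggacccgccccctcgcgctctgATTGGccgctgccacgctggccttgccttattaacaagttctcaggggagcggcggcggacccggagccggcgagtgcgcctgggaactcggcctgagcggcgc
Msx2: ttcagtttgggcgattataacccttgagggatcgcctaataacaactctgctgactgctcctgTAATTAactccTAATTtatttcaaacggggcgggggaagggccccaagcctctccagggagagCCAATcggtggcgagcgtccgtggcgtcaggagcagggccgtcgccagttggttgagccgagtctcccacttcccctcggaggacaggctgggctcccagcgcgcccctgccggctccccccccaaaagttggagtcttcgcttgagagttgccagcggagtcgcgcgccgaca

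The window of *Msx2* held 3 matches to TAATT, of which 2 overlap as TAATTA, and 1 CCAAT box. The windows of *Dlx2*, *Msx1* and *Dlx1* held 0 TAATT matches. At least 1 match to that core was found in 27.0% of 32851 promoter windows of this length. The *Dlx2* window held 2 E-boxes and 1 CCAAT box, and the *Msx1* window held 2 CCAAT boxes. At least 1 E-box was found in 7.15% of all windows, and at least 1 CCAAT box in 37.4%. A match says that these letters are present and not that a factor binds.

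Of the listed BMP ligands, inducers of *Dlx* and *Msx* genes, *Bmp2* and *Bmp7* were higher in chondrocytes and *Bmp4* was within 2-fold. Of 9 listed BMP ligands, receptors and SMADs, 3 were over 2-fold higher in chondrocytes, 0 were higher in dermal fibroblasts and 6 were within 2-fold, with a median log2 fold of 0.22. Of all genes, 12.1% and 15.8% were called in these directions. *Bmp2* had 115 and 15 counts (7.87-fold, interval 4.58 to 14.5). *Bmp7* had 299 and 43 (7.14-fold, interval 5.18 to 10.1), and *Bmp4* had 147 and 90 counts and a fold of 1.68. The third gene called, the receptor *Bmpr1b*, had 212 and 106 counts (2.05-fold, interval 1.62 to 2.62). With total counts scaling 2 genes of the list were called. *Bmp7* and *Bmpr1b* were named after their values were seen. *Bmpr1a*, a BMP receptor with 2241 and 2200 counts, and *Smad5*, which carries the signal to the nucleus, with 1728 and 1684, each had a fold of 1.05.

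*Edn1*, *Ednra* and *Ece1*, of the endothelin branch upstream of *Dlx5* and *Dlx6* in the pharyngeal arches, were higher in dermal fibroblasts. Of the 7 genes of this branch with a fold, 0 were higher in chondrocytes, 3 were higher in dermal fibroblasts and 4 were within 2-fold (median log2 fold 0.11). The shares of all genes were 12.1% and 15.8%. The ligand *Edn1* had 40 and 125 counts (3.04-fold higher in dermal fibroblasts, interval 2.12 to 4.46). Its receptor *Ednra* had 342 and 1102 (3.14-fold, interval 2.78 to 3.55), and the enzyme that activates the ligand, *Ece1*, had 1020 and 5329 (5.09-fold, interval 4.76 to 5.44). *Hand2*, an arch transcription factor of this branch, had 18 and 11 counts.

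Genes of hypertrophic cartilage and bone, among them targets of *Dlx5* and *Msx2*, were mostly higher in the chondrocyte library. Of 15, 11 were over 2-fold higher in chondrocytes, 1 in dermal fibroblasts and 3 were within 2-fold, with a median log2 fold of 2.98. The shares of all genes called in these directions were 12.1% and 15.8%. *Runx2*, a master regulator of osteoblasts that also drives hypertrophy, had 1051 and 778 counts and a fold of 1.39 (interval 1.26 to 1.52). *Sp7*, which encodes osterix, had 156 and 13 counts (12.3-fold, interval up to 23.7). *Alpl*, the phosphatase of mineralizing cells, had 734 and 173 (4.36-fold, interval 3.69 to 5.17), and the matrix gene *Ibsp* had 349 and 1. *Col10a1*, the collagen of hypertrophic cartilage, had 10378 and 3. *Bglap*, the osteocalcin gene of mature osteoblasts, had 6 and 0.

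Osteoblast markers were counted beside *Dlx5*. Of the 7 genes, 6 of which are also in the list above, 5 were over 2-fold higher in chondrocytes, 0 were higher in dermal fibroblasts and 2 were within 2-fold (*Bglap2* with 5 and 1 counts, *Ifitm5* with 3 and 4, both named after their values were seen), and the list summed to 32.9 CPM in chondrocytes and 1.14 CPM in dermal fibroblasts. *Bglap*, at 0 in dermal fibroblasts, passed on 6 counts. For this and the later marker lists, the shares of all genes called were 12.1% in chondrocytes and 15.8% in dermal fibroblasts. In the chondrocyte library itself, the chondrocyte list (9 genes, all over 2-fold higher there) summed to 103876 CPM, against 23.9 CPM in dermal fibroblasts. The part of osteoblasts in the *Dlx5* reads was not tested.

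**Figure D5:**
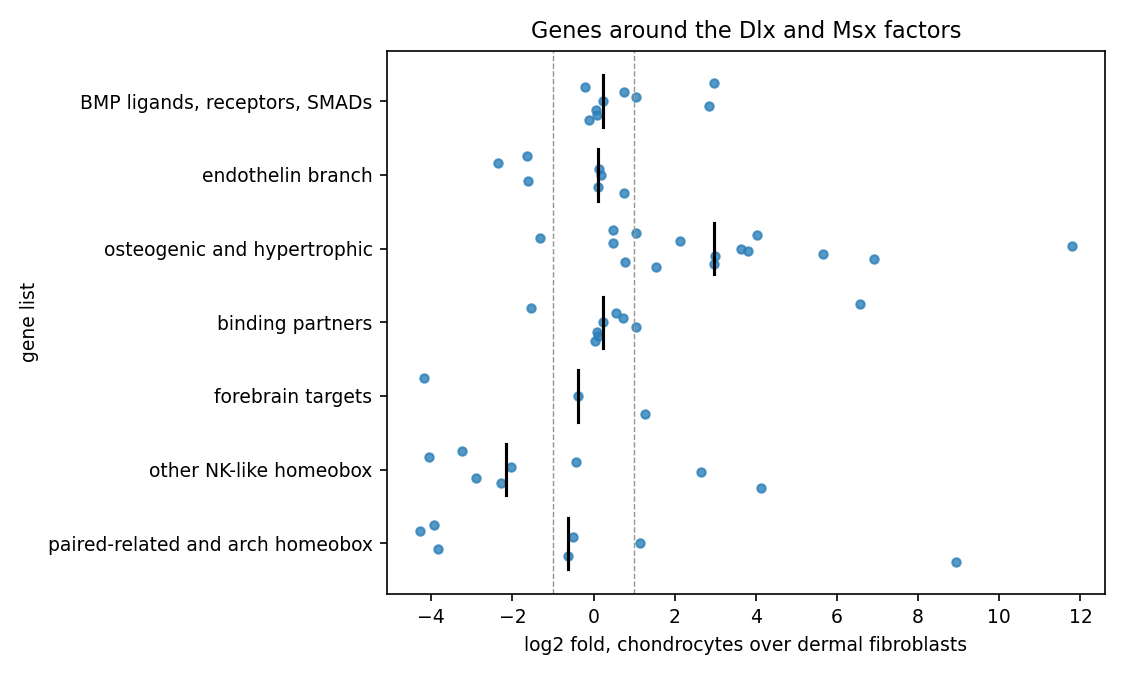
Log2 fold of chondrocytes over dermal fibroblasts (horizontal axis) for the genes of 7 lists around the *Dlx* and *Msx* factors (points, spread vertically for sight), with the median of each list as a black line and 2-fold as dashed lines. The median is 2.98 for the osteogenic and hypertrophic list, 0.22 for the BMP list, 0.11 for the endothelin branch and -2.16 for other NK-like homeobox genes.

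Of 9 genes for proteins that bind DLX or MSX factors, 2 were over 2-fold higher in chondrocytes, 1 in dermal fibroblasts and 6 were within 2-fold (median log2 fold 0.24), beside the 12.1% and 15.8% of all genes called in these directions. *Maged1*, which binds DLX5 and MSX2, had 12974 and 11292 counts (1.18-fold), and its relative *Ndn* had 1977 and 1871 (1.09-fold). *Pias1*, a partner of MSX1, had 500 and 486 counts, and *Tbp*, the TATA-binding protein that MSX1 contacts, had 375 and 261.

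Related homeobox genes had their own directions. Of 22 other NK-like class genes, the wider class to which *Dlx* and *Msx* belong, 8 had a fold, 2 were higher in chondrocytes and 5 in dermal fibroblasts (median log2 fold -2.16). *En1*, which marks dermal fibroblasts of the back, had 58 and 568 counts (9.53-fold higher in dermal fibroblasts), and *Emx2*, a gene of the limb girdle and forebrain, had 72 and 554 (7.49-fold). *Hlx* had 184 and 30 counts and was 6.30-fold higher in chondrocytes, and *Vax2* had 7 and 119 and was 16.6-fold higher in dermal fibroblasts. Of 7 paired-related and arch homeobox genes, 2 were higher in chondrocytes, 3 in dermal fibroblasts and 2 within 2-fold (median log2 fold -0.62). Beside both lists stand the 12.1% of all genes higher in chondrocytes and the 15.8% higher in dermal fibroblasts. *Prrx1*, a factor of limb and skin mesenchyme, had 5030 and 7336 counts. *Alx1*, a craniofacial factor, had 1424 and 2 counts, and *Shox2*, a limb factor, had 25 and 500.

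The forebrain genes that DLX1 and DLX2 activate had few reads or none. Of 8, 3 had a fold, 1 in each direction over 2-fold and 1 within, and *Gad1*, *Slc32a1* and *Gsx2* were at 0 in both libraries. These 3 genes are too few to compare with the 12.1% and 15.8% of all genes called. *Lhx8*, which is also expressed in jaw and tooth mesenchyme, had 5 and 93 counts and was 18.1-fold higher in dermal fibroblasts. In that library *Dlx1* had more reads, with an interval that includes equality, and *Dlx2* had fewer. Of 7 neural markers, *Gad1*, *Elavl3* and *Rbfox3* were at 0 in both libraries, and the list summed to 6.47 CPM in chondrocytes and 23.5 CPM in dermal fibroblasts. Most of these reads fell on *Tubb3* (83 and 349 counts) and *Stmn2* (29 and 82), and *Gad2* had 3 and 1. The sums thus rest on few genes of the list.

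Keratinocyte markers were higher in the dermal fibroblast library, where *Dlx3* had 2 reads. Of 9 keratinocyte markers with a fold, 7 were over 2-fold higher there and 0 in chondrocytes, and the list summed to 9.26 CPM in chondrocytes and 254 CPM in dermal fibroblasts. *Krt14* had 17 and 1939 counts, *Krt5* 1 and 1693, and *Dsp* 27 and 722. Of 5 hair follicle markers with a fold, 4 were within 2-fold and 1 was higher in dermal fibroblasts, and the list summed to 3.63 and 3.91 CPM, with *Dsg4* at 0 in both libraries. Melanocyte markers summed to 9.76 and 61.9 CPM and Schwann cell markers to 162 and 58.7 CPM, of which *S100b*, also a cartilage gene, held 2657 and 87 counts. Endothelial markers summed to 14.1 and 42.4 CPM and macrophage markers to 48.5 and 80.2 CPM, with 5 of 6 macrophage markers within 2-fold. Beside the members higher in chondrocytes (*Dlx2*, *Dlx3*, *Dlx5* and *Msx1*), 6 of 10 skeletal muscle markers were over 2-fold higher in chondrocytes, 0 were higher in dermal fibroblasts and 4 were within 2-fold (median log2 fold 1.15, summed to 1859 and 1304 CPM). The part of these cells in the reads of the members was not tested. Of 10 dermal fibroblast markers, 9 were over 2-fold higher in dermal fibroblasts, and *Col1a1* had 39143 and 322379 counts.

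The genes nearest to the members with the most reads were found by distance in log2 scaled counts over the 2 libraries, which uses only a level and a fold. *Bves* (100 and 34 counts), *Atp2a3* (100 and 33) and *Gm16702* (101 and 35) were nearest to *Dlx2*, with 67 of 14270 genes within a distance of 0.5. *Sh3rf2* (93 and 2 counts), *AI118078* (94 and 3) and *B4galnt4* (96 and 2) were nearest to *Dlx5*, with 18 genes within that distance. For *Msx2*, *Awat2*, *Spa17* and *Wfikkn1*, each with 22 and 12 counts, were nearest, among 123 genes within it.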

How the data were processed

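RNA-Seq was performed on 1 library of each cell type. Per the labels and the study's methods, the authors prepared stranded mRNA libraries, sequenced 75 bp single-end reads, called bases with CASAVA 1.8.2 and mapped the reads to mm10 with TopHat2 2.0.13, Bowtie2 2.2.3 and SAMtools 0.1.19. The deposited values are whole read counts for each gene symbol, not normalized. The counting program, its annotation and its strand setting are not given in the sources used here. In 27 of 24421 rows the symbol had become a date, and these rows were not named.

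Counts were scaled by edgeR TMM factors (edgeR 4.0.16, R 4.3.3), which were 0.954 for chondrocytes and 1.05 for dermal fibroblasts. Counts under 3 were set to 3 for folds, and a gene with at most 3 counts in both libraries had none. The 95% Clopper-Pearson intervals of folds and shares and the Poisson intervals of levels (scipy 1.17.1, Python 3.11.15) take in counting error alone, as no molecular identifiers were used and several reads may come from the same molecule. The calculations were tested on simulated counts of genes with at least 100 expected counts. That test did not cover counts as low as those of the members. Genes named were the 8 members, the antisense transcripts of their loci, genes fixed by name or among the 4 most abundant of each pathway list, the 3 most abundant genes of each marker list and those at 0, and the 3 nearest genes to the 3 most abundant members. Not every gene the rule admits is printed. The members and lists were chosen with earlier results of these data known. Gene positions are those of GRCm38, exon lengths and homeoboxes come from GENCODE vM1 (NCBIM37), and no position was converted. Protein sequences were not used here, and 1 sequence is not reported. Alternatives were 5 other scalings, including DESeq2 1.42.0 factors, a floor of 1 count or of 10, a pseudocount of 1, a minimum of 10 counts, a fold over 4 and the whole interval beyond 2-fold.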

Additional observations from a re-analysis of the deposited data

How the results depend on the processing

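No paired analysis was possible because chondrocytes and dermal fibroblasts had 1 library each, and no library could be left out. Under the 5 other scalings the fold of *Dlx5* ranged from 29.0 to 34.7, that of *Dlx2* from 2.69 to 3.22, and that of *Msx2* from 1.79 to 2.14, on both sides of 2-fold. *Dlx1* ranged from 1.89-fold to 2.26-fold higher in dermal fibroblasts. The fold of *Msx1* was 4.45 with TMM, 4.39 with DESeq2 factors and 4.05 with total counts. With TMM its interval began at 2.01, so whether all of it lies above 2-fold depends on the scaling. Total counts moved all log2 folds by -0.14 and *Actb* by 0.12, and genes higher in chondrocytes made up 43.3% of the calls with TMM, 35.7% with total counts and 48.6% with *Actb*. Of 55 member folds, 52 stayed within the counting interval and 0 reversed. The 3 others moved because a floor of 10 counts raises the lower count by construction, which gave 9.55 for *Dlx5*, 3.29 for *Dlx3* and 1.34 for *Msx1*. The number of members higher in chondrocytes ranged from 3 to 5. With a pseudocount of 1 it was 5 because *Dlx6*, with 1 and 0 counts, was added, while *Msx2* was at 1.90-fold. The number higher in dermal fibroblasts was 1, and was 0 with *Actb*, without the 10 most abundant genes, with a floor of 10 counts, with a fold over 4 and with the whole interval beyond 2-fold, and 2 with a floor of 1 count, where *Dlx4* joined *Dlx1*. With a pseudocount of 1 it was also 1, but the gene was *Dlx4* (5.84-fold), since *Dlx1* fell to 1.95-fold.

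Over all genes, a fold over 4 gave 713 and 929 genes in chondrocytes and dermal fibroblasts in place of 1887 and 2468, the whole interval gave 1041 and 1546, and a pseudocount of 1 gave 2876 in chondrocytes. Among binding partners, 1 gene was higher in chondrocytes with total counts, a floor of 10, a minimum of 10 counts, a fold over 4 and the whole interval, and 0 were higher in dermal fibroblasts with a floor of 10, a fold over 4 and the whole interval. In the endothelin branch, a fold over 4 left 1 gene. Of the forebrain genes, 2 were higher in chondrocytes with a floor of 1 and a pseudocount, and 0 with a floor of 10, a minimum of 10 counts, a fold over 4 and the whole interval. Of the osteogenic genes, 0 were higher in dermal fibroblasts with a fold over 4 and with the whole interval. Of other NK-like genes, 4 (floor of 1) and 6 (pseudocount) were higher in chondrocytes, and 3 in dermal fibroblasts with the whole interval. Of paired-related genes, 1 was higher in chondrocytes with a floor of 10, a fold over 4 and the whole interval. Of the antisense transcripts, 2 (floor of 1) and 3 (pseudocount) were higher in chondrocytes. Few reads limit the members at 3 or fewer counts in a library.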
